A study of Canis lupus familiaris with 12 samples.

Results

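In canine myoblasts carrying inducible transcription factors, 151 of 14736 genes that could be followed across all libraries were induced selectively by human DUX4. A gene was counted as a member if its mean in DUX4 libraries was at least 1 CPM (counts of a gene scaled to the usual per-million total of all gene counts in its library) and at least 4 times both the luciferase mean and the DUXC mean, with 0.1 added to each mean. These choices used the DUX4, DUXC and luciferase values, so the contrasts of DUX4 with luciferase and with DUXC are given as descriptions. The 3 DUXC-ALT libraries did not enter the rule. The deposited tables carry no gene names, so members are cited by rank of their mean CPM with DUX4, and 4 of them also by their row number in the DUX4 table. No function, symbol or position can therefore be attached to a member, and marker genes of muscle or other cells could not be looked up.

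The cells were immortalized canine myoblasts, muscle precursor cells kept as a line. All carried the lentiviral vector pCW57.1, which expresses its insert in the presence of doxycycline. The 4 groups of 3 libraries each expressed human DUX4, canine DUXC, its isoform DUXC-ALT, or, as negative control, luciferase. In the protocol text, doxycycline at 1 ug/ml for 24 h applies to all samples. The treatment tag names doxycycline for the DUX4, DUXC and DUXC-ALT samples and says that the luciferase samples received none. Every difference from luciferase may therefore also be a difference in doxycycline, and the 2 cannot be told apart. Comparisons among DUX4, DUXC and DUXC-ALT do not carry this label difference. The amount of each factor in the cells is not known here, so a difference between factors may also be one of amount. The labels do not say whether replicates were separate cultures or whether a line was a single clone, so the p-values reflect the spread of these samples alone, and that spread may be technical.

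DUX4 is a double homeobox transcription factor of the cleavage-stage embryo. Its misexpression in skeletal muscle underlies facioscapulohumeral muscular dystrophy, where it switches on germline and early embryonic genes that muscle normally keeps silent. DUXC is the related double homeobox gene of dogs and some other mammals that lack a DUX4 gene of the primate type. The series asks how far DUXC and its isoform act like DUX4 when expressed in muscle cells.

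Total gene counts were 15556477 to 18346979 in the DUX4 libraries, 16681574 to 18573006 in the DUXC libraries, 17300128 to 19992969 in the DUXC-ALT libraries and 17246818 to 20591033 in the luciferase libraries. At this depth 1 CPM stands for 15.6 to 20.6 reads in a library, and low luciferase values of members rest on few reads. Replicates differed by 1.43 to 2.65 times the sampling noise (chi-square per degree of freedom), so none was a copy of another.

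The members were 1.02% of joined genes, chosen by the rule for high DUX4 values, so their share of counts is given as a description. In DUX4 libraries they held 1.33% ± 0.0199 of all gene counts, in DUXC libraries 0.187% ± 0.00242, in DUXC-ALT libraries 0.0631% ± 0.000909 and in luciferase libraries 0.0551% ± 0.00111 (SD, n = 3 each). The 6 most abundant members made up 45.1% to 45.9% of that share in the DUX4 libraries. By level with DUX4, 64 members stood between 1 and 10 CPM, 59 between 10 and 100 CPM and 28 at 100 CPM or more.

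**Figure D1:**
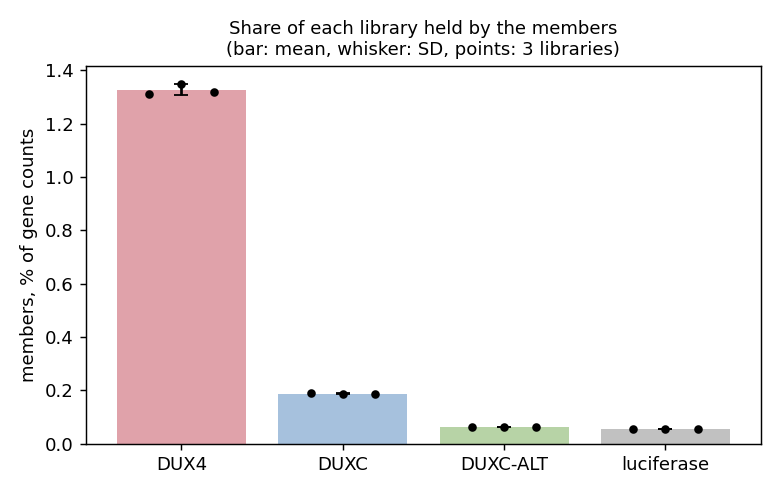
Share of all gene counts held by the 151 members in each library, in percent, with the group mean as a bar, the SD as a whisker and the 3 libraries as points. DUX4 libraries stand at 1.31% to 1.35%, DUXC libraries at 0.186% to 0.190%, DUXC-ALT libraries at 0.0623% to 0.0641% and luciferase libraries at 0.0539% to 0.0561%.

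Some of the 151 rows were not separate measurements. The 9 members at ranks 74 to 82 had counts that differed from one another by at most 1 read in every library. Of these, 7 were identical throughout, at 187, 292 and 186 reads with DUX4, 30, 36 and 25 with DUXC, 2, 2 and 3 with DUXC-ALT, and 0, 5 and 3 with luciferase. How the authors counted reads that match several places is not known here, and whether these rows share reads was not tested. Counted as 1 gene, these rows leave 143 distinct members. Over all joined genes, 45 rows (0.305%) matched another row in every library. The 7 identical rows averaged 13.2 ± 2.33 CPM with DUX4, 1.69 ± 0.231 CPM with DUXC, 0.125 ± 0.0314 CPM with DUXC-ALT and 0.145 ± 0.145 CPM with luciferase (SD, n = 3).

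The most abundant members were of 2 kinds, genes already active in control myoblasts and genes nearly silent there. The member at rank 1 stood at 1554, 1598 and 1563 CPM with DUX4, at 337.5, 309.1 and 341.9 CPM with DUXC, at 48.5, 49.4 and 50.7 CPM with DUXC-ALT, and at 39.7, 45.2 and 42.9 CPM with luciferase. The rank 2 member stood at 1445, 1430 and 1390 CPM with DUX4, at 249.4, 241.0 and 240.6 CPM with DUXC, at 98.98, 96.9 and 105.5 CPM with DUXC-ALT, and at 82.3, 83.1 and 80.7 CPM with luciferase. In both genes the order was DUX4, DUXC, DUXC-ALT, luciferase, and no 2 groups overlapped. Rank 2 had the highest luciferase level of any member, followed by rank 6, at 653.9 ± 4.19 CPM with DUX4, 157.0 ± 4.42 CPM with DUXC, 63.5 ± 0.717 CPM with DUXC-ALT and 55.1 ± 0.983 CPM with luciferase (SD, n = 3).

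Near-silent genes showed the largest inductions. Gene row 2663, at rank 3, had 980.7, 1043 and 975.7 CPM with DUX4 and 20.7, 19.9 and 21.1 CPM with DUXC. The same gene had 0.05002, 0.231 and 0.428 CPM with DUXC-ALT and 0.107, 0.174 and 0.389 CPM with luciferase. It was 3094 times the luciferase level with DUX4, the largest such ratio among members, and 48.4 times the DUXC level. Gene row 13826, at rank 4, had 729.8, 731.0 and 691.9 CPM with DUX4, 47.3, 49.7 and 49.6 CPM with DUXC, 0.200, 0.0578 and 0.375 in the DUXC-ALT libraries, and 0.107, 0.290 and 0.0971 CPM with luciferase. Its DUX4 level was 2711 times luciferase and 14.7 times DUXC. In both genes DUXC-ALT and luciferase libraries overlapped at a few reads each, with 13 and 13 reads in all for row 2663 and 12 and 9 for row 13826, so both large ratios rest on few luciferase reads. Without luciferase replicate 3 the fitted log2 difference of DUX4 from luciferase was 12.72 in place of 12.03 for row 2663, and without luciferase replicate 2 it was 12.67 in place of 12.06 for row 13826.

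The members at ranks 8 and 9 were also near silent in control cells. The rank 8 gene had 397.5, 413.5 and 408.5 CPM with DUX4, 37.6, 38.9 and 36.9 CPM with DUXC, 2 reads in all with DUXC-ALT and 8 with luciferase, and its DUX4 level was 1712 times luciferase. Without luciferase replicate 3 its fitted log2 difference of DUX4 from luciferase was 12.11 in place of 11.41. The rank 9 gene had 365.6, 408.5 and 403.5 CPM with DUX4, 14.3, 12.6 and 12.7 CPM with DUXC, 7 reads in all with DUXC-ALT and 11 with luciferase. Its DUX4 level was 29.6 times DUXC, the third largest such ratio. For all of these genes the DUX4 libraries lay above the DUXC libraries, and the DUXC libraries lay well above both other groups.

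**Figure D2:**
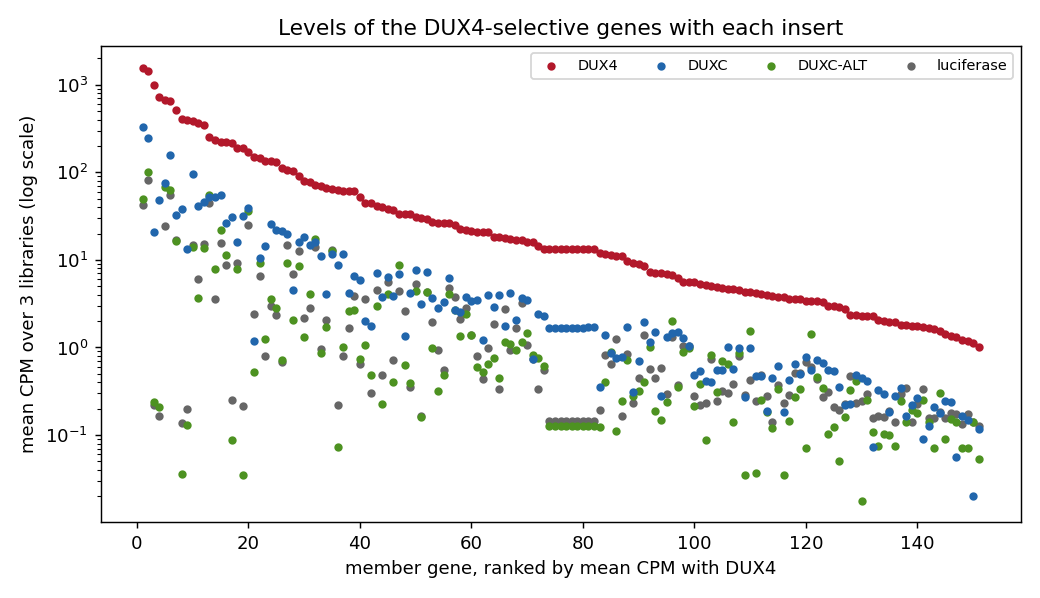
Mean CPM over 3 libraries (log scale) of each of the 151 members, ranked from left to right by its level with DUX4, with 1 point for each of the DUX4, DUXC, DUXC-ALT and luciferase groups. DUXC lies above luciferase for 122 members and DUXC-ALT for 51, against 7483 and 8461 of the 14736 joined genes. The flat stretch at ranks 74 to 82 is the 9 near-identical rows.

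Across the set, the median ratio to luciferase was 12.3 with DUX4, with a range of 4.13 to 3094, and the median ratio of DUX4 to DUXC was 6.97, with a range of 4.02 to 116.1. With the near-identical rows counted as 1 gene these medians were 11.7 and 6.13. In the tests over all genes, all 151 members were called raised with DUX4 against luciferase, where 38.4% of all tested genes were called raised, and all 151 were called higher with DUX4 than with DUXC, where 33.0% were. The rule fixed both counts, so nothing is read from them. At 4-fold, 4.45% of joined genes were that far above luciferase with DUX4 and 1.29% that far above DUXC. The rule with DUX4 and DUXC exchanged found 160 genes, so selectivity of this size occurred in both directions.

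When genes were chosen on 2 libraries of each group and measured in the remaining libraries, a check added after seeing the data, 147 to 158 genes were chosen. In the libraries left out, 124 to 128 of them were again at least 4 times both luciferase and DUXC. Over all libraries, 4.45% of joined genes were that far above luciferase with DUX4 and 1.29% that far above DUXC, each taken alone. The whole rule was met by 1.02%. No such share was computed in the left-out libraries. In the held-out libraries all of the chosen genes were above both, with a median of 6.32 to 7.21 times the DUXC level. The smallest ratios there were 1.31 to DUXC and 1.37 to luciferase. The left-out libraries belong to the same groups and may be technical replicates, so the check describes agreement among these libraries only.

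Near the limits of the rule, membership was a matter of small differences. The 3 members closest to the expression limit had 1.02, 1.14 and 1.19 CPM with DUX4, and the 3 genes just below it had 0.972, 0.940 and 0.936 CPM. Against luciferase the 3 lowest ratios inside were 4.13, 4.30 and 4.31, and the highest outside were 3.996, 3.96 and 3.86. Against DUXC the 3 lowest inside were 4.02, 4.02 and 4.04, and the highest outside were 3.98, 3.97 and 3.94.

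Many members also stood above luciferase with DUXC, though by less than with DUX4. The DUXC mean lay above the luciferase mean for 122 members and below it for 29, against 7483 and 7253 of the 14736 joined genes. Of the 143 distinct members it lay above for 114. In edgeR's quasi-likelihood test with Benjamini-Hochberg adjustment, 104 members passed the filter on low counts and were tested. The test called 78 members raised (75% of those tested, 51.7% of all 151) and 8 lowered (7.69% and 5.3%). Among all tested genes the shares were 38.9% raised and 37.4% lowered. Members of low luciferase level passed the filter only if their DUXC level was high enough, which favours rises. When the filter was left out, 53.6% of the 151 rose and 7.28% fell, against 35.7% and 31.8% of all genes tested that way. With the near-identical rows counted as 1 gene and the filter kept, 70 of 143 were raised and 8 lowered. The median ratio of DUXC to luciferase was 1.60 over the members and 1.01 over all joined genes. It was at least 4 for 38 members, or 30 distinct ones, against 4.07% of joined genes. Both the DUXC and the luciferase values had entered the rule, and their part in these counts was not tested.

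The members that DUX4 induced most were all above luciferase with DUXC too. For the 11 members whose DUX4 level was at least 100 times luciferase, the ratio of DUXC to luciferase was 4.67 to 185.1, with a median of 44.7. For the 77 members between 10 and 100 times, it was 0.508 to 14.2, with a median of 2.97, and 27 reached 4, the 9 near-identical rows among them. For the 63 members under 10 times, it was 0.435 to 2.08, with a median of 1.21, and 20 lay below 1. These ratios share the luciferase libraries with the ratios that define the bins. Because DUX4 exceeded DUXC at least 4 times throughout, a member under 10 times could not reach a high DUXC ratio.

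The largest rises with DUXC were those of gene row 13826, at 48.9 ± 1.36 CPM with DUXC against 0.165 ± 0.109 CPM with luciferase, and of the rank 8 gene, at 37.8 ± 1.02 CPM against 0.137 ± 0.0964 CPM (SD, n = 3). The log2 fold change was 8.15 ± 0.15 for row 13826 (SE, edgeR's adjusted p = 1.61e-42) and 7.95 ± 0.17 for the rank 8 gene (SE, edgeR's adjusted p = 3.68e-40). Without luciferase replicate 2 the value for row 13826 was 8.76, and without luciferase replicate 3 that of the rank 8 gene was 8.66. Groups did not overlap in either gene.

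A few members went the other way with DUXC. Gene row 211, at rank 21, had 144.6, 150.9 and 148.7 CPM with DUX4, 1.08, 1.13 and 1.32 CPM with DUXC, 0.2501, 0.578 and 0.749 in the DUXC-ALT libraries, and 2.46, 2.15 and 2.62 CPM with luciferase. It had the largest DUX4 to DUXC ratio of all members, 116.1. Its log2 fold change with DUXC was -1.09 ± 0.23 (SE, edgeR's adjusted p = 3.55e-05) and with DUXC-ALT it was -2.28 ± 0.29 (SE, edgeR's adjusted p = 1.39e-10), so that human DUX4 alone stood above the luciferase libraries. Gene row 9381, at rank 48, had 32.6, 34.8 and 33.6 CPM with DUX4, 1.35, 1.62 and 1.08 CPM with DUXC, 0.5502, 0.5202 and 0.803 in the DUXC-ALT libraries, and 2.30, 2.73 and 2.82 CPM with luciferase. Its log2 fold change with DUXC was -0.99 ± 0.22 (SE, edgeR's adjusted p = 7.87e-05) and with DUXC-ALT it was -2.13 ± 0.26 (SE, edgeR's adjusted p = 8.81e-11). In both genes the DUX4, DUXC, DUXC-ALT and luciferase libraries formed separate ranges. The 8 members lowered with DUXC had median levels of 39.4 CPM with DUX4, 1.88 CPM with DUXC, 1.12 CPM with DUXC-ALT and 3.16 CPM with luciferase.

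**Figure D3:**
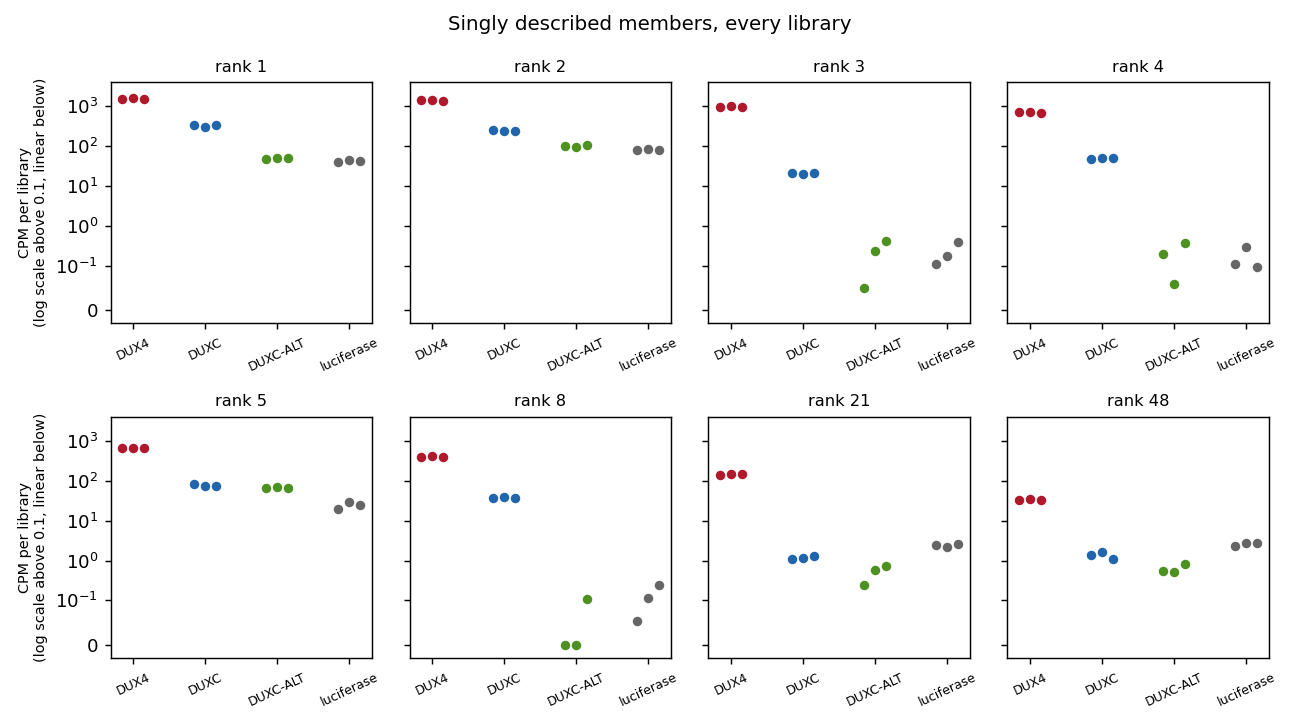
CPM in every library (log scale above 0.1 CPM, linear below) of 8 members, with the 3 libraries of DUX4, DUXC, DUXC-ALT and luciferase from left to right in each panel. Ranks 3, 4 and 8 are near 0 with DUXC-ALT and luciferase and intermediate with DUXC, whereas ranks 21 and 48 lie below luciferase with both canine proteins.

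With the isoform DUXC-ALT the median member lay near the control level, and single members were called changed in both directions. The median ratio of DUXC-ALT to luciferase was 0.885 over the members and 1.04 over all joined genes, with 51 members above 1 and 100 below. The member ratios ran between 0.157 and 3.13. Of the 151, 0 reached 4 times luciferase, against 0.0882% of joined genes, and 4 reached 2 times, against 0.95%. In the other direction, 19 members lay 2-fold or more below luciferase, against 4.09% of joined genes, and 3 lay 4-fold or more below, against 0.706%. A filter on low counts left 72 members to be tested, of which 17 were raised and 25 lowered (edgeR's quasi-likelihood test with Benjamini-Hochberg adjustment), against 25.6% raised and 25.7% lowered among all tested genes. The raised members were 23.6% of those tested and 11.3% of all 151, and the lowered ones 34.7% of those tested and 16.6% of all 151, so whether the lowered share lies above or below that of all genes depends on the base. With no filter all 151 were tested, and 17 (11.3%) were raised and 34 (22.5%) lowered, against 21.5% and 21.7% of all genes tested that way. The raised members had a median log2 fold change of 0.46 and the lowered ones of -0.80. The luciferase libraries, though not the DUXC-ALT libraries, had entered the rule. The 493 other genes that DUX4 held at 4 times luciferase or more had a median ratio of 0.992 with DUXC-ALT, and the difference from the members was not tested.

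The largest rises with DUXC-ALT were modest beside those with DUX4. The rank 110 gene had 4.17, 4.31 and 4.44 CPM with DUX4, 0.861, 1.19 and 0.899 CPM with DUXC, 1.60, 2.14 and 0.856 in the DUXC-ALT libraries, and 0.429, 0.348 and 0.486 CPM with luciferase. Its log2 fold change with DUXC-ALT was 1.75 ± 0.35 (SE, edgeR's adjusted p = 1.33e-05), and DUXC-ALT replicate 3 lay below the other DUXC-ALT libraries but above all luciferase libraries. The rank 5 gene had 655.0, 689.1 and 671.7 CPM with DUX4, 81.3, 74.4 and 73.2 CPM with DUXC, 66.3, 70.1 and 66.1 in the DUXC-ALT libraries, and 19.4, 28.8 and 24.9 CPM with luciferase. It rose with DUXC-ALT by 1.40 ± 0.11 on the log2 scale (SE, edgeR's adjusted p = 2.49e-05) and with DUXC by 1.60 ± 0.11 (SE, edgeR's adjusted p = 2.03e-06). This abundant gene thus stood above luciferase in every library of all 3 factors, and its luciferase libraries were spread more widely than those of the members at ranks 1, 2 and 6.

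The largest falls with DUXC-ALT were those of gene row 211, given above, and of the gene at rank 86. The rank 86 gene had 11.1, 11.3 and 11.2 CPM with DUX4, 0.861, 0.756 and 0.659 CPM with DUXC, 0, 0.173 and 0.161 in the DUXC-ALT libraries, and 1.29, 1.33 and 1.12 CPM with luciferase. It fell with DUXC-ALT by 3.52 ± 0.49 on the log2 scale (SE, edgeR's adjusted p = 2.44e-09). The DUXC-ALT value rests on 6 reads in all, and without DUXC-ALT replicate 1, which had no read, the fall was 2.92.

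**Figure D4:**
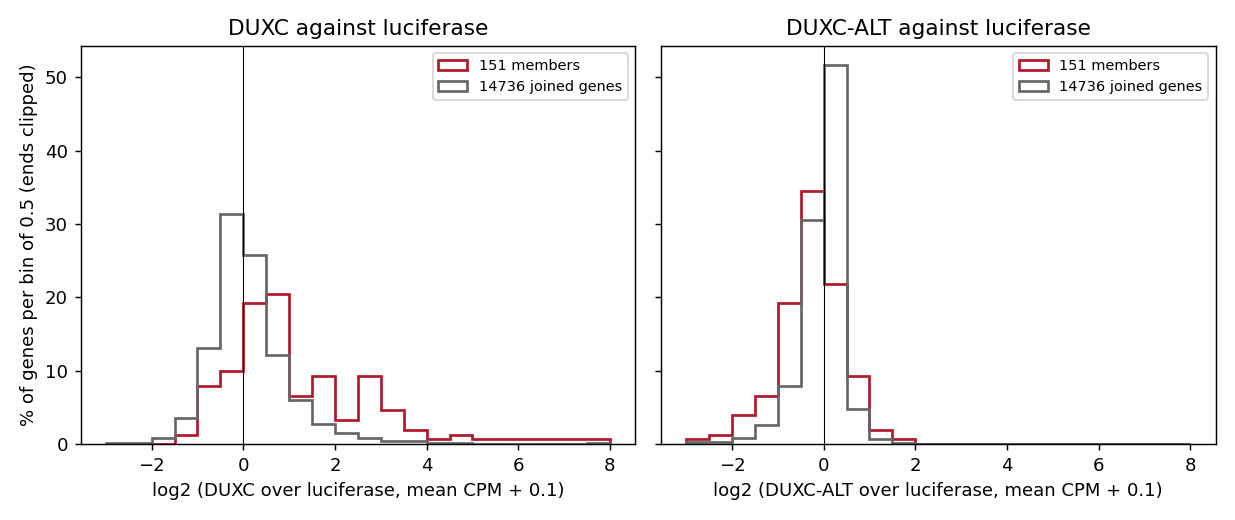
Distribution of the log2 ratio to luciferase (mean CPM + 0.1) over the 151 members and over all 14736 joined genes, as percent of genes per bin of 0.5, for DUXC on the left and DUXC-ALT on the right. With DUXC the members reach far to the right of all genes (median ratio 1.60 against 1.01), and with DUXC-ALT they lie slightly to the left (0.885 against 1.04). Members and joined genes were not matched for level.

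Set directly against DUXC, where both groups are labelled as given doxycycline, DUXC-ALT gave lower levels for most members. Of the 151, 104 passed the filter and were tested (edgeR's quasi-likelihood test with Benjamini-Hochberg adjustment). With DUXC-ALT 3 (2.88%) of them were higher and 85 (81.7%) lower, against 38.6% higher and 38.2% lower among all tested genes. Members of low DUXC-ALT level passed the filter only if their DUXC level was high enough, which favours falls. With no filter 1.99% of the 151 were higher and 67.5% lower, against 35.9% and 35% of all genes tested that way. With the near-identical rows counted as 1 gene and the filter kept, 3 were higher and 77 lower. Of the 85, 71 were lower by more than 2-fold and 43 by more than 4-fold. By the ratio of mean CPM, 85 of the 151 were at 1/2 of DUXC or less and 44 at 1/4 or less. Among the 14736 joined genes, 2015 and 690 were. In all 85 members called lower, every DUXC-ALT library lay below every DUXC library. Over the whole set that separation held for 106 members, against 35.6% of joined genes. The DUXC values had entered the rule, which kept genes of low DUXC level.

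The most extreme falls were those of the genes at ranks 8 and 19. The rank 8 gene had 2 reads with DUXC-ALT and 2036 with DUXC, a ratio of 0.000944 with an exact interval of 0.000114 to 0.00341 at 95%, for counting error only. Both reads came from DUXC-ALT replicate 3. The rank 19 gene had 190.1, 188.3 and 185.3 CPM with DUX4, 31.9, 29.5 and 33.9 CPM with DUXC, 0.05002, 0 and 0.0535 in the DUXC-ALT libraries, and 0.268, 0.232 and 0.146 CPM with luciferase. Its 2 DUXC-ALT reads against 1705 DUXC reads gave a ratio of 0.00113, with an exact interval of 0.000136 to 0.00408. Both genes were thus raised with DUXC and were at or under the luciferase level with the isoform, at 2 reads against 8 and 2 reads against 12.

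Some members were called changed in opposite directions with the 2 canine proteins. Of the 151 members, 71 were tested in both comparisons with luciferase. Among these 71, 13 were raised with DUXC and lowered with DUXC-ALT, against 7.21% of all genes tested in both. The reverse was seen in 0, against 9.9%. The 71 had passed the filter on low counts in both comparisons. Taken over all 151 members, the 13 are a share near that of all genes. They are therefore not read as a trait of the members. The difference from all genes was not tested. Both comparisons share the luciferase libraries.

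The 3 members called higher with DUXC-ALT than with DUXC differed by 1.27 to 2.35 times, 1 of them by over 2-fold. The rank 121 gene had 3.22, 3.11 and 3.86 CPM with DUX4, 0.538, 0.648 and 0.4796 CPM with DUXC, 1.40, 1.16 and 1.77 in the DUXC-ALT libraries, and 0.214, 0.986 and 0.583 CPM with luciferase. Its log2 difference of DUXC-ALT from DUXC was 1.34 ± 0.31 (SE, edgeR's adjusted p = 0.000121). The rank 47 gene averaged 8.77 ± 1.23 CPM in DUXC-ALT libraries and 6.88 ± 0.520 CPM in DUXC libraries (SD, n = 3). The log2 difference between them was 0.33 ± 0.11 (SE, edgeR's adjusted p = 0.00802). Its call was lost with DESeq2 (adjusted p = 0.0519) and without DUXC-ALT replicate 1, where the edgeR log2 difference was 0.21 and the adjusted p = 0.128.

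The levels with DUX4 and with DUXC-ALT are set side by side as a description, since the rule chose members for high DUX4 values. All 151 were called higher with DUX4 than with DUXC-ALT, against 37.9% of all tested genes, and each DUX4 library lay above each DUXC-ALT library in all 151, against 32.6% of joined genes. The ratio was at least 4 for 147 members, against 5.21% of joined genes, with a median of 17.1 and a range of 2.27 to 2997. The choice of members on DUX4 values bears on each of these counts, and nothing is read from them. The lowest ratio, 2.27, was that of the rank 121 gene, with a mean of 3.39 ± 0.404 CPM in DUX4 libraries and of 1.44 ± 0.307 CPM in DUXC-ALT libraries (SD, n = 3).

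The members covered a wide range of levels in control cells. The 76 members under 0.5 CPM with luciferase had a median DUXC to luciferase ratio of 1.58, the 54 between 0.5 and 5 CPM a median of 1.59, and the 21 at 5 CPM or more a median of 1.75. The corresponding median ratios of DUX4 to luciferase were 11.6, 12.7 and 14.7, and those of DUX4 to DUXC were 7.33, 5.91 and 5.58. The median ratio to luciferase was thus highest, and that to DUXC lowest, in the members most active in control cells. The median ratios of DUXC-ALT to luciferase were 0.862, 0.873 and 0.984. These are descriptions of chosen genes, without a test. Genes with fewer than 7 luciferase reads in all could not be followed across tables, so genes wholly silent in control cells are outside the set.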

How the data were processed

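Polyadenylated RNA of 12 samples was sequenced, 3 per insert. The canFam3 build is named in the submitters' processing notes, as are DESeq2, Bowtie2 2.2.6, TopHat2 2.1.0 and CASAVA, with no role or order. The sources used here do not give the counter, nor its handling of strand and of reads that match several places. The authors deposited raw read counts per gene in 3 tables, each with the luciferase libraries and those of 1 factor. No row had fewer than 7 reads in a table. The authors' normalized tables and the repeat tables were not used here.

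Rows with at least 7 luciferase reads have the same luciferase counts in the same order in all 3 tables and were joined by position. CPM were computed on column totals. Tests on these counts used edgeR 4.0.16 under R 4.3.3 (TMM, filterByExpr, robust quasi-likelihood fit, Benjamini-Hochberg adjustment over all tested genes at 0.05), each fit with the 6 libraries compared, on a factor's own table against luciferase and on joined rows otherwise. TMM held the median log2 difference of all tested genes between -0.01 and 0.01. The SE is the log2 fold change divided by the square root of F. Alternatives were DESeq2 1.42.0, RLE scaling, no filter, a replicate block, all 12 libraries in 1 fit, leaving out each library, and other limits in the rule.

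The members and lists were chosen with earlier results of these data known. Described singly were the 6 members highest with DUX4, the 3 with the largest ratio of DUX4 to luciferase and to DUXC, the 2 highest with luciferase, and the 2 largest rises and falls per comparison of a canine protein, among called members at 1 CPM or more whose groups did not overlap. Lists of named genes could not be used. Intervals cover counting error only.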

Additional observations from a re-analysis of the deposited data

Results flagged for a closer look

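Some members were called changed in opposite directions with the canine protein and with its isoform. There were 13 members called raised with DUXC and lowered with DUXC-ALT, each against luciferase. All 13 were also lower with DUXC-ALT than with DUXC in the direct edgeR test. The choice of the 13 on the same libraries made that outcome likely, so nothing is read from it. Among all joined genes tested in both comparisons the pattern occurred in 7.21%, and 71 of the 151 members were tested in both. Taken over all 151, the 13 are a share near that of all genes, and they are not read as a trait of the members. The 13 had median levels of 60.6 CPM with DUX4, 7.62 CPM with DUXC, 3.68 CPM with DUXC-ALT and 4.80 CPM with luciferase. Their log2 fold changes were 0.31 to 3.02 with DUXC and -1.36 to -0.25 with DUXC-ALT, and the direct differences of DUXC-ALT from DUXC were -3.79 to -0.65. The reverse pattern was seen in 0 members, against 9.9% of all genes tested in both. The luciferase and DUXC values had entered the rule, and their part in these counts was not tested. Groups of 3 libraries were too small for a check of single outlying libraries.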

How the results depend on the processing

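The number of members depended on the limits of the rule, with 44 at 8-fold, 238 at 3-fold and 83 when genes whose luciferase counts recur in another row were left out, the last also leaving out the 9 near-identical rows. It was 106 with 0.5 CPM added, 160 on TMM library sizes, of which all 151 members were part, and 146 to 161 when single libraries were left out. Members lowered with DUXC against luciferase numbered 13 with all 12 libraries in 1 fit, against 8, and members higher with DUXC-ALT than with DUXC numbered 1 with DESeq2 and 5 in that fit, against 3; the cause was not tested. With single libraries left out these counts were 6 to 8 and 2 to 4. Every other count of called members stayed within 1.5 times its value. Replicate numbers did not pair the samples, with correlations of same-numbered libraries of -0.03 to 0.02; with the number as a replicate block, DUXC raised 76 members and lowered 8, DUXC-ALT raised 18 and lowered 24 against luciferase and was higher than DUXC for 4 and lower for 85, and DUX4 counts remained 151. The filter on low counts left 47 members untested against luciferase with DUXC and 79 with DUXC-ALT. With no filter all 151 were tested. With DUXC 81 (53.6%) were raised and 11 (7.28%) lowered, against 35.7% and 31.8% of all genes tested that way. With DUXC-ALT 17 (11.3%) were raised and 34 (22.5%) lowered, against 21.5% and 21.7%.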

Other observations

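Relative spread over the DUX4 libraries was somewhat larger for the median member than for the median gene. The coefficient of variation over the 3 DUX4 libraries had a median of 6.19% and a range of 0.589% to 39.3% over the 151 members, beside a median of 4.46% over the 12499 joined genes at 1 CPM or more with DUX4. Counting noise weighs more at low levels. The median DUX4 level was 13.2 CPM over the members and 18.3 CPM over all 14736 joined genes. The latter include 2237 genes below 1 CPM with DUX4, so the median level of the 12499 genes is higher than 18.3 CPM. No comparison at matched level was made, and the 9 near-identical rows were each counted. The highest DUX4 value fell in replicate 1 for 40 members, in replicate 2 for 64 and in replicate 3 for 47. The 9 near-identical rows were among those highest in replicate 2.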
